A study of Gallus gallus with 12 samples.

Results

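The RNA of 6 integrin subunit genes, *ITGA4*, *ITGB1*, *ITGB2*, *ITGAV*, *ITGA6* and *ITGB3*, was examined in chicken DT40 cells, a B lymphocyte line from the bursa that is widely used for gene disruption. They are 6 of 24356 genes in the deposited files, of which 13869 carry a symbol, and they were found by symbol. *ITGA4* was selected on these same measurements, for a lower level in all 3 mutant lines than in wild type. Its comparison with wild type is therefore a description without a test. The other 5 are its beta partner and further partner and leukocyte integrin subunits.

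Integrins are receptors for matrix proteins and for adhesion molecules of other cells, and each is a pair of 1 alpha and 1 beta subunit. *ITGA4* encodes α4, which pairs with β1 (*ITGB1*) as VLA-4 or with β7 (*ITGB7*), and which lymphocytes use to bind VCAM1, fibronectin and MAdCAM-1. *ITGB2* encodes β2, the beta subunit of the leukocyte integrins such as LFA-1. *ITGAV*, *ITGA6* and *ITGB3* encode αV, which binds RGD ligands, α6, which binds laminin, and β3, which pairs with αV or, on thrombocytes and platelets, with αIIb.

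The study asked which genes change in expression when cells lack a factor that helps replication past G-quadruplex (G4) structures in DNA. The 4 DT40 lines were sequenced from 3 cell populations each, which gave 12 libraries. They were wild type; *timeless*, with both *TIMELESS* alleles disrupted in exon 1 by CRISPR-Cas9; *ddx11*, lacking the helicase DDX11; and *fancj*, an existing line lacking the helicase FANCJ, whose gene is *BRIP1*. No treatment is stated for these libraries. For *ddx11* a CRISPR-Cas9 line and an older targeted line both exist and the sources used here do not say which was sequenced, nor which *timeless* clone, so a change of 1 clone and a consequence of the disruption cannot be told apart.

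Each library held 13406041 to 50160512 expected counts, the estimated number of reads RSEM assigned to genes. All 21 of the B lymphocyte markers with a row reached a mean of 1 TPM, and they summed to 2588 to 3530 TPM in wild type, *timeless* and *ddx11* and to 953.3 to 2076 TPM in *fancj*. None of the 7 myeloid and thrombocyte markers reached that mean over all libraries, with sums of at most 7.5 TPM. Of the 13 rows of T lymphocyte markers 5 did, with sums of 76.0 to 234 TPM, and of 4 erythroid markers 2 did, with sums of 15.5 to 51.2 TPM. *TIMELESS* RNA was 21.4 to 24.3 TPM in *timeless* against 34.2 to 48.4 in wild type, and *DDX11* RNA 4.53 to 7.03 TPM in *ddx11* against 10.5 to 15.5. *BRIP1* RNA was 7.81, 8.47 and 1.23 TPM in the libraries labelled *fancj* against 5.16 to 8.52 in wild type, so it does not check that label in replicates 1 and 2. In replicate 3 *TIMELESS*, at 8.88 TPM, and *DDX11*, at 7.47 TPM, were also at their lowest of the line. The low *BRIP1* value therefore does not check the label there either, and *fancj* below means the libraries so labelled. Replicate 3 of *fancj* stood apart: relative to the mean of its line on the log2 scale, genes of at least 4000 bases lay 0.86 below genes of under 1500 bases, against a range of -0.28 to 0.47 in the other 11 libraries.

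Among the 11 alpha subunits with a row, *ITGA4* was the most abundant in wild type and ranked below *ITGA1* and *ITGA3* in every mutant library. Its level in TPM, which is scaled to transcript length and library total, was 87.4, 68.3 and 64.9 in the 3 wild-type libraries. It was 5.58, 13.7 and 3.86 TPM in *timeless*, 27.8, 12.4 and 16.4 in *ddx11* and 5.49, 10.5 and 1.48 in *fancj*. Every mutant library lay below every wild-type library, and the mutant library nearest to wild type was *ddx11* replicate 1. In bulk RNA, fewer cells with the transcript and less of it in each cell cannot be told apart. These levels rested on 2268 to 7123 expected counts per library in wild type. The mutant libraries held fewer, with 149 to 449 in *timeless*, with 531 to 1202 in *ddx11* and with 81 to 262 in *fancj*.

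The mean of *ITGA4* was 73.5 ± 12.1 TPM (SD, n = 3) in wild type, 18.9 ± 8.01 in *ddx11*, 7.70 ± 5.23 in *timeless* and 5.82 ± 4.51 in *fancj*. The wild-type mean was thus 3.90 times that of *ddx11*, 9.56 times that of *timeless* and 12.6 times that of *fancj*. In this order wild type and *ddx11* did not overlap, whereas *ddx11* overlapped *timeless* and *timeless* overlapped *fancj*. Spread within a line was wider at the low levels: the highest library was 1.35 times the lowest in wild type, 3.54 times in *timeless*, 2.24 times in *ddx11* and 7.09 times in *fancj*.

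**Figure D1:**
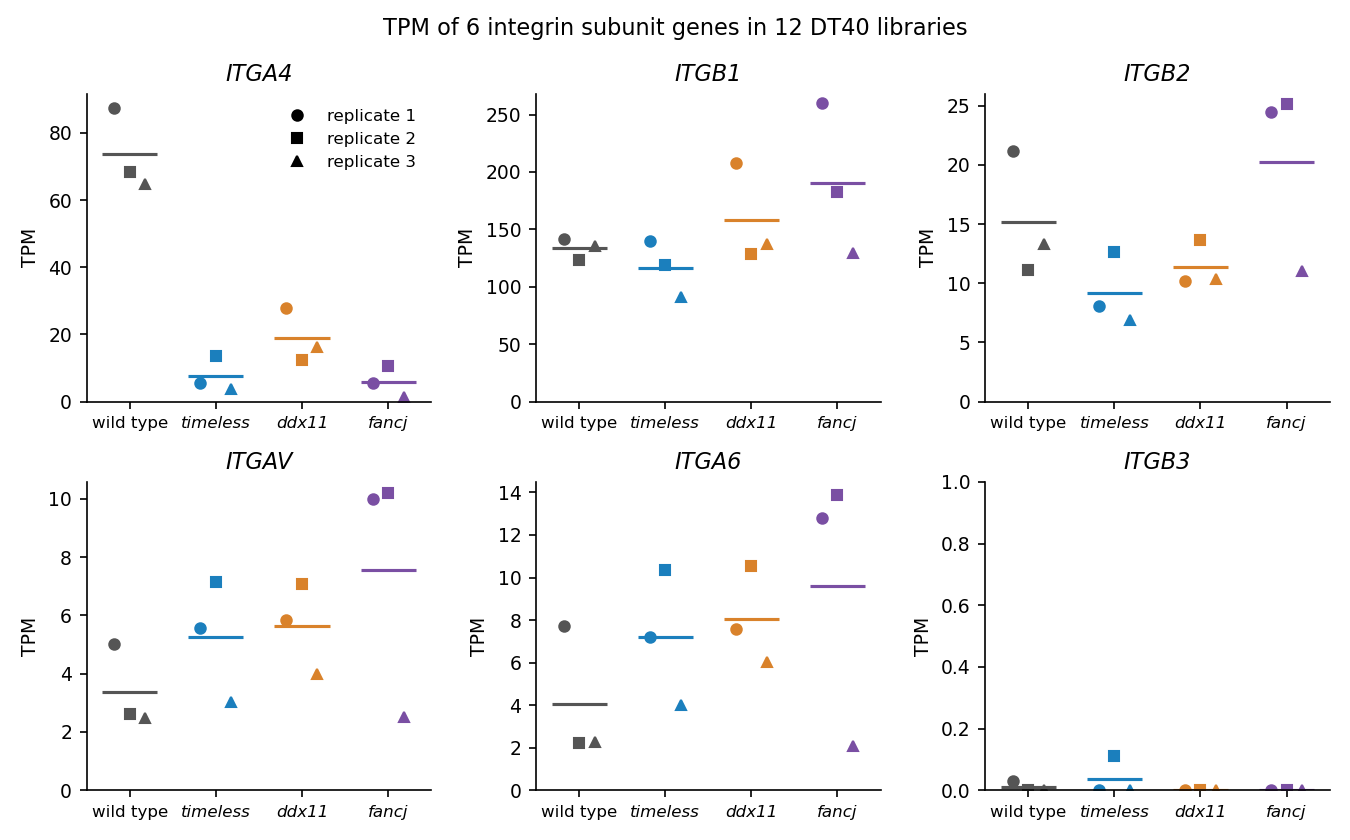
TPM (vertical axis, from 0) of each of the 6 integrin subunit genes in the 4 lines (horizontal axis); each point is 1 library, its shape is the replicate number and the bar is the line's mean. *ITGA4* is at 64.9 to 87.4 TPM in wild type and at 1.48 to 27.8 in the mutants, the other 4 detected genes overlap wild type in every mutant, and *ITGB3* is near 0 throughout.

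On the fitted scale, the log2 fold change of *ITGA4* against wild type was -3.20 in *timeless*, with a 95% interval of -4.18 to -2.21. It was -2.05 in *ddx11*, with an interval of -2.61 to -1.50, and -3.78 in *fancj*, with an interval of -5.0 to -2.55. These values chose the gene. The intervals do not allow for that choice and serve as no test. For reference, 3.89% of the 11653 genes tested were lower in *timeless* than in wild type at an adjusted p under 0.05, 1.21% of 11470 in *ddx11* and 1.41% of 11824 in *fancj*. The TPM of the 3 libraries did not overlap with wild type for 27.6%, 14.4% and 23.0% of the genes tested in *timeless*, *ddx11* and *fancj*, respectively. Without *timeless* replicate 2, its highest library there, the value in *timeless* was -3.92, and without *fancj* replicate 3 the value in *fancj* was -3.39.

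The choice of *ITGA4* did not use comparisons between mutants, and these were tested. It did use the level in each mutant line, so these tests are not free of the selection. *ITGA4* was lower in *timeless* than in *ddx11* by a log2 difference of -1.14 ± 0.45 (SE), which did not pass the test at an adjusted p of 0.22 (quasi-likelihood test in edgeR, Benjamini-Hochberg method). The 1 library that decided this was *timeless* replicate 2, at 13.7 TPM: without it the difference was -1.85 with an edgeR adjusted p of 0.0073. That library was above *ddx11* replicate 2, at 12.4 TPM, whereas *timeless* replicates 1 and 3 were below the *ddx11* libraries of the same number. Leaving it out thus removed the library that went the other way. The fit that blocked on the replicate number did not call *ITGA4* either. Between *fancj* and *ddx11* the log2 difference was -1.73 ± 0.53, at an edgeR adjusted p of 0.19. DESeq2's Wald test gave -1.72 for the same pair, with an adjusted p of 0.028. Between *fancj* and *timeless* the log2 difference was -0.59, with an interval of -2.03 to 0.85.

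*ITGB1*, the β1 partner of α4 and of most other alpha subunits in the list, was the most abundant subunit with a row in all 12 libraries. It did not pass the test in any mutant. Its level was 142, 123 and 135 TPM in wild type, 139.7, 119 and 91.0 in *timeless*, 208, 129 and 138 in *ddx11* and 259.9, 183 and 129 in *fancj*. All 3 mutant lines overlapped wild type, with *ddx11* replicate 1 and *fancj* replicates 1 and 2 above all wild-type libraries. The log2 fold change was -0.14 in *timeless*, with an interval of -0.50 to 0.23, 0.16 in *ddx11*, with an interval of -0.20 to 0.52, and 0.53 in *fancj*, with an interval of 0.06 to 1.0. The edgeR adjusted p was 0.67, 0.75 and 0.24, respectively.

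*ITGB1* lies on chromosome 2 in the RefSeq annotation of GRCg7b. This chromosome held many genes that were lower in *timeless*, and their position along it was not examined. Of its 686 genes tested against wild type, 27.7% were lower at an adjusted p under 0.05, against 4.23% of all 8338 genes with a chromosome, and their median log2 fold change was -0.57 (-0.02 over all). The value of *ITGB1* there, -0.14, lay above that median. In *ddx11* and *fancj* the median of chromosome 2 was -0.03 and 0.12. *ITGA4*, *ITGB2*, *ITGAV* and *ITGA6* all lie on chromosome 7, whose median was -0.01 in *timeless*, -0.04 in *ddx11* and 0.07 in *fancj*.

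With *ITGA4* low and *ITGB1* overlapping wild type in every mutant line, the ratio of their TPM separated wild type from every mutant library. It was 0.617, 0.554 and 0.479 in wild type, 0.040, 0.114 and 0.042 in *timeless*, 0.134, 0.097 and 0.119 in *ddx11* and 0.021, 0.057 and 0.011 in *fancj*. This ratio carries the selection of *ITGA4* and is given as a description. It compares RNA per length, not protein. In *fancj* the mean of *ITGB1* was also higher, at 191 TPM against 133 in wild type, which lowers the ratio there.

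*ITGB2*, the leukocyte beta subunit, was the second beta subunit at 11.1 to 21.2 TPM in wild type. It measured 21.2, 11.1 and 13.3 TPM in wild type, 8.07, 12.6 and 6.91 in *timeless*, 10.2, 13.7 and 10.3 in *ddx11* and 24.4, 25.1 and 11.1 in *fancj*. All lines overlapped, with *fancj* replicates 1 and 2 the highest libraries of the 12. Its log2 fold change was -0.65 in *timeless* (interval -1.33 to 0.03, edgeR adjusted p = 0.25), -0.46 in *ddx11* (interval -1.03 to 0.10, edgeR adjusted p = 0.57) and 0.39 in *fancj* (interval -0.29 to 1.07, edgeR adjusted p = 0.57). Against *timeless*, *fancj* was higher by 1.04 ± 0.30 (SE) at an edgeR adjusted p of 0.17, and against *ddx11* by 0.85 ± 0.26 at 0.19. The Wald test of DESeq2 called both, at 1.06 with an adjusted p of 0.027 and at 0.86 with an adjusted p of 0.036. The alpha subunits that pair with β2 (*ITGAL*, *ITGAM*, *ITGAX* and *ITGAD*) had no row under these symbols. Nor had *ITGA5*, *ITGA10*, *ITGAE* and *ITGB4*. These subunits therefore enter no ranking or share given here.

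*ITGAV* and *ITGA6* were low and had higher means in every mutant than in wild type, and neither passed the test. *ITGAV* measured 5.0, 2.63 and 2.48 TPM in wild type, 5.58, 7.15 and 3.03 in *timeless*, 5.83, 7.08 and 3.98 in *ddx11* and 9.99, 10.2 and 2.51 in *fancj*. *ITGA6* measured 7.73, 2.21 and 2.25 TPM in wild type, 7.20, 10.3 and 4.0 in *timeless*, 7.60, 10.5 and 6.02 in *ddx11* and 12.8, 13.9 and 2.07 in *fancj*. For both genes wild-type replicate 1 was well above its 2 fellow libraries, replicate 3 was the lowest of each mutant line and replicate 2 the highest.

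The log2 fold change of *ITGAV* was 0.70 ± 0.36 (SE) in *timeless*, 0.69 ± 0.30 in *ddx11* and 1.09 ± 0.45 in *fancj*, with edgeR adjusted p of 0.31, 0.45 and 0.28. That of *ITGA6* was 0.89 ± 0.52, 0.96 ± 0.46 and 1.13 ± 0.68, with edgeR adjusted p of 0.37, 0.51 and 0.48. The interval was widest for *ITGA6* in *fancj*, from -0.48 to 2.74. Single libraries decided 2 calls: without wild-type replicate 1, *ITGA6* was 1.77 higher in *ddx11* at an edgeR adjusted p of 0.011, and without *fancj* replicate 3, *ITGAV* was 1.43 higher in *fancj* at an edgeR adjusted p of 0.046.

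**Figure D2:**
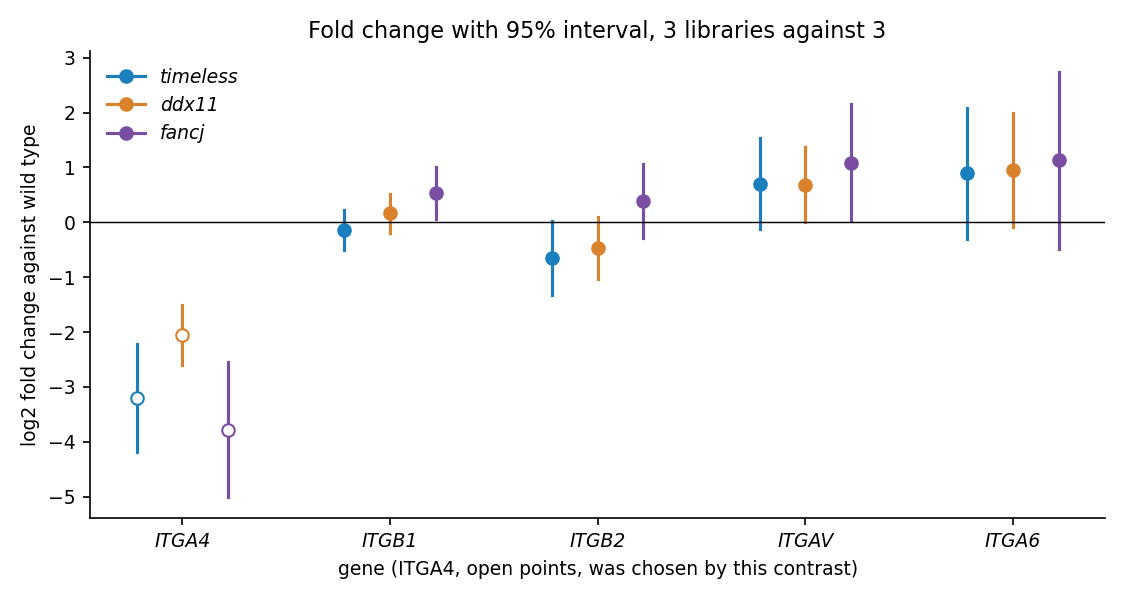
Log2 fold change (vertical axis) of 5 integrin subunit genes in each mutant line against wild type, with 95% intervals from the edgeR fit of 3 libraries against 3; open points mark *ITGA4*, which was chosen by this contrast. *ITGA4* lies between -3.78 and -2.05, and the other 4 genes lie between -0.65 and 1.13. The intervals of *ITGA4* do not allow for its choice by this contrast and serve as no test.

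The order of libraries within a line was alike for some subunits and not for others. *ITGAV* and *ITGA6* had the same highest library in 4 of 4 lines and the same lowest in 3 of 4, and *ITGB2* shared its highest library with both in 4 of 4. *ITGA4* shared its highest library with *ITGAV* and with *ITGA6* in 3 of 4 lines. *ITGB1* shared its highest library with *ITGB2*, *ITGAV* and *ITGA6* in 1 of 4 lines each, and with *ITGA4* in 2 of 4. Within the mutant lines replicate 3 was also the library with the lowest values of long genes relative to short ones, at -0.28 in *timeless*, -0.20 in *ddx11* and -0.86 in *fancj*. The transcripts of the members were 3066 to 5682 bases long. The part of transcript length and of library quality in these levels was not tested.

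*ITGB3*, the β3 subunit, was at or near 0. It had 1 expected count in wild-type replicate 1, 4 in *timeless* replicate 2 and 0 in the other 10 libraries, and it was below the limit for testing. A count of 0 allows up to 3 counts, which for this gene would be 0.025 to 0.106 TPM depending on the library, so *ITGB3* RNA was not detectable above that level in those libraries. It covers counting error only.

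In all, 0 of the 4 members tested besides *ITGA4* were altered in *timeless*, *ddx11* or *fancj* against wild type, where 8.20%, 2.62% and 4.28% of all genes tested were altered, respectively. DESeq2's Wald test also gave 0 of 4 in each, and at an unadjusted p under 0.05 in edgeR the counts were 0, 0 and 2. Over all genes tested, that unadjusted p was under 0.05 for 2528 of 11653, 1272 of 11470 and 1995 of 11824. The Wald test called 1499, 547 and 1319 of these genes tested. Between mutants, 0 of 5 members were altered in *timeless* against *ddx11*, where 5.12% of genes were, 0 of 5 in *fancj* against *timeless*, where 0.850% were, and 0 of 5 in *fancj* against *ddx11*, where 0.782% were. Those 5 include *ITGA4*, whose choice used the mutant values. Same-numbered libraries deviated together in *timeless* with *ddx11* and in *fancj* with *timeless*, though *fancj* replicate 2 matched *timeless* replicate 1 best. Blocking on that number raised the altered genes from 601 to 1629 and from 102 to 247 there. The members altered stayed at 0 of 5 in both. At an unadjusted p under 0.05 in edgeR the counts were 1, 2 and 2, and DESeq2's Wald test called 0, 1 and 2. Over all genes, 2200 of 11736, 1736 of 11995 and 1663 of 11897 had such an unadjusted p. The Wald test called 1182, 847 and 836 genes. With so few members, the counts of members do not show that the 4 genes are the same in all lines.

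The summed RNA of the other alpha subunits stayed within overlapping ranges while the share of *ITGA4* was low. In wild type *ITGA4* held 42.1% to 45.3% of the summed TPM of the 11 alpha subunits with a row. The share was 3.82% to 10.5% for *timeless*, 11.2% to 18.8% for *ddx11* and 1.79% to 6.45% for *fancj*. The other alpha subunits together were at 86.1 to 106 TPM in wild type, against 97.2 to 127 for *timeless*, 87.8 to 120.0 for *ddx11* and 81.3 to 152 for *fancj*, and these ranges overlapped. *ITGA1*, a collagen receptor subunit, and *ITGA3*, a laminin receptor subunit, took the first places in the mutants. *ITGA1* was at 41.0 to 47.6 TPM in wild type and 30.1 to 56.7 in the mutants, and *ITGA3* at 32.3 to 49.3 and 30.6 to 66.3. Their log2 fold changes lay between -0.24 and 0.43 and none passed the test. Among 7 beta subunits *ITGB1* held 81.6% to 94.7% of the summed TPM across the 12 libraries.

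**Figure D3:**
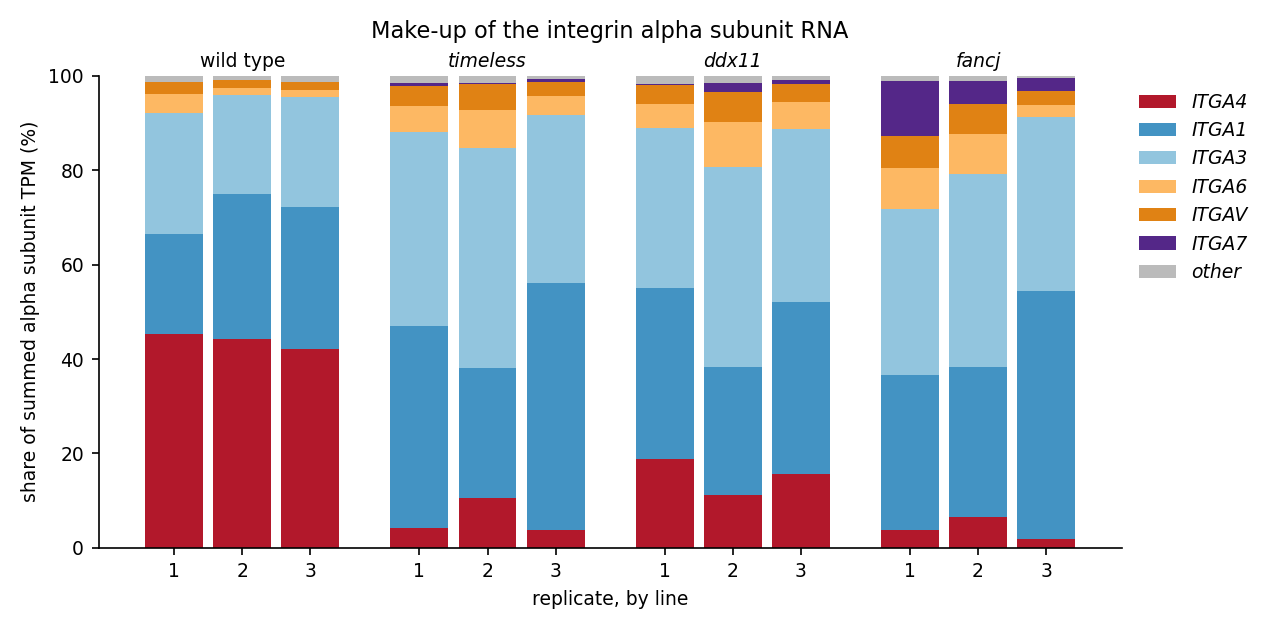
Share of the summed TPM of the 11 integrin alpha subunit genes (vertical axis, percent) held by each gene in each library (horizontal axis, replicates 1 to 3 by line). *ITGA4* takes 42.1% to 45.3% in wild type and at most 18.8% in a mutant library, and *ITGA7* reaches 11.7% in *fancj* replicate 1.

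Of 12 further integrin subunits with a row in the files, 4 were tested against wild type in each mutant. Over all genes tested 8.20%, 2.62% and 4.28% were altered in *timeless*, *ddx11* and *fancj*. In *timeless* 2528 of 11653 genes had an unadjusted p under 0.05 in edgeR, and DESeq2's Wald test called 1499. Of the 4 subunits 0 were altered in *timeless* in edgeR (1 at an unadjusted p under 0.05 and 1 with DESeq2's Wald test), and 1 was higher and 0 lower in *ddx11* and in *fancj*, the gene being *ITGA7* in both. *ITGA7*, known in mammals as a laminin receptor subunit of muscle, was at 0.10, 0.11 and 0.13 TPM in wild type, on 3, 13 and 5 expected counts. It reached 0.52, 1.92 and 0.94 TPM in *ddx11*, and 17.2, 8.12 and 2.21 TPM in *fancj*, so that every library of both lines was above wild type. *ITGA7* passed the limit of 1 TPM only through *ddx11* and *fancj*, the lines where it was high, so a difference was built into its being tested. The log2 fold change was 3.26 ± 0.61 (SE) in *ddx11* at an edgeR adjusted p of 0.027, and 6.22 ± 0.73 in *fancj* at 0.0090. The call in *ddx11* was lost without wild-type replicate 2 or 3 or *ddx11* replicate 3, and the call in *fancj* without any 1 of the wild-type libraries, with adjusted p of up to 0.12 and 0.067. In *timeless* it was at 0.88, 0.41 and 0.51 TPM, below the limit for testing. With no TPM limit it was 2.41 higher there at an edgeR adjusted p of 0.025.

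*ITGB7*, the other beta partner of α4, was at 10.8, 1.44 and 1.30 TPM in wild type, so wild-type replicate 1 stood far above its fellow libraries. It measured 0.47, 0.54 and 0.34 TPM in *timeless*, 1.32, 4.05 and 2.96 TPM in *ddx11*, and 0.49, 0.46 and 0.51 TPM in *fancj*. Every library of *timeless* and *fancj* was below every wild-type library, but the log2 fold changes of -3.23 ± 0.87 (SE) and -3.09 ± 0.94 did not pass the test, at edgeR adjusted p of 0.059 and 0.14. In both comparisons *ITGB7* passed the limit of 1 TPM only through wild type, the line where it was higher. With no TPM limit the log2 fold change was -3.27 in *timeless*, which passed at an edgeR adjusted p of 0.0097, and -3.13 in *fancj* at 0.082. In *ddx11* the levels overlapped wild type, with a log2 fold change of -0.67 ± 0.80. *ITGA9*, an alpha subunit related to α4, stayed below 1 TPM in every line and was at 0.78, 0.60 and 0.94 in wild type, 0.06, 0.16 and 0.04 in *timeless*, 0.39, 0.03 and 0.09 in *ddx11* and 0.08, 0.39 and 0.05 in *fancj*. With no TPM limit its log2 fold change was -3.16 in *timeless* at an edgeR adjusted p of 0.0026, -2.33 in *ddx11* at 0.054 and -2.33 in *fancj* at 0.12. *ITGA9* lies on chromosome 2.

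**Figure D4:**
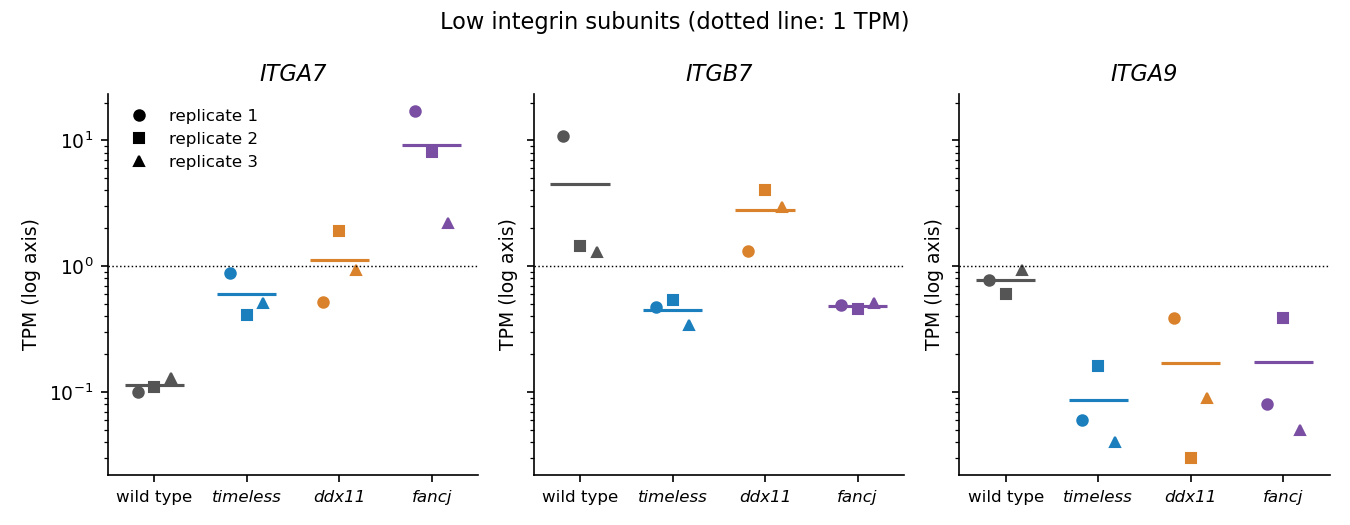
TPM on a log axis of *ITGA7*, *ITGB7* and *ITGA9* in the 4 lines; each point is 1 library, its shape is the replicate number, the bar is the line's mean and the dotted line marks 1 TPM. *ITGA7* is above wild type in every mutant library, *ITGB7* is below wild type in *timeless* and *fancj*, and *ITGA9* is below 1 TPM throughout.

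Integrins are switched on from inside the cell by talin, kindlins and RAP1, and 13, 12 and 13 of the 15 activators and adaptors with a row were tested in *timeless*, *ddx11* and *fancj*. In *timeless* 1 was higher and 2 lower (3 of 13, against 8.20% of all genes tested). In *ddx11* 0 were higher and 1 lower (1 of 12, against 2.62%). In *fancj* 0 were altered in edgeR, against 4.28% of all genes. There 4 had an unadjusted p under 0.05 in edgeR, and 4 were called by DESeq2's Wald test. Of all 11824 genes tested in *fancj*, 1995 had such a p and the Wald test called 1319. *FERMT2*, a kindlin, was at 0.06 to 0.17 TPM in wild type and 1.77 to 4.22 in *timeless*, a log2 fold change of 5.04 ± 0.61 (SE) at an edgeR adjusted p of 0.0029. It passed the limit of 1 TPM only through *timeless*, and the fit that asked for 1 TPM in both lines could not test it. *APBB1IP* (RIAM), which links RAP1 to talin, was lower by -0.69 ± 0.13 in *timeless* and by -0.65 ± 0.14 in *ddx11*, at edgeR adjusted p of 0.017 and 0.048. *SKAP2*, an adaptor of integrin activation, was lower by -0.74 ± 0.15 in *timeless* at an edgeR adjusted p of 0.021. *APBB1IP* and *SKAP2* both lie on chromosome 2. Their calls were lost in several fits that left out 1 library, among them those without wild-type replicate 2 or 3, with adjusted p of up to 0.58. The most abundant of the list, talin (*TLN1*), was at 101 to 132 TPM in wild type and did not pass the test, with log2 fold changes of -0.16, 0.20 and -0.12. *SWAP70*, the next in level, was at 99.9 to 132 TPM with log2 fold changes of -0.22, 0.13 and -0.21.

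Of the 13 integrin inhibitors with a row, 10 were tested and 0 were altered in each mutant in edgeR. Of all genes tested, 8.20%, 2.62% and 4.28% were altered in *timeless*, *ddx11* and *fancj*. A list of 10 is too short for 0 to set it apart from these shares. At an unadjusted p under 0.05 in edgeR there were 0 in *timeless* and *ddx11* and 2 in *fancj*, as many as DESeq2's Wald test called. Over all genes tested, 2528 of 11653, 1272 of 11470 and 1995 of 11824 had such a p. The Wald test called 1499, 547 and 1319 of all genes tested. *SHARPIN*, which holds integrins inactive, was at 37.1 to 46.0 TPM in wild type with log2 fold changes of -0.29 in *timeless*, 0.19 in *ddx11* and -0.26 in *fancj*. *DOK1*, which competes with talin for the beta tail, was at 30.8 to 44.9 TPM with -0.09, -0.33 and -1.0. The last of these had an edgeR adjusted p of 0.065.

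Of the 28 genes of the signalling and adhesion complex with a row, 26, 26 and 28 were tested, and 1 was higher and 3 lower in *timeless*, 1 higher and 2 lower in *ddx11*, and 2 higher and 1 lower in *fancj*. These are 4 of 26, 3 of 26 and 3 of 28, against 8.20%, 2.62% and 4.28% of all genes tested. *FYN*, a SRC-family kinase, was at 2.60 to 3.95 TPM in wild type, against 26.1 to 36.0 for *timeless* and 24.2 to 33.3 for *ddx11*. Its log2 fold change was 3.35 ± 0.24 (SE) and 3.05 ± 0.19, at edgeR adjusted p of 0.00020 and 0.00015. In *fancj* it was at 4.63 to 20.4 TPM, with a log2 fold change of 1.90 ± 0.43 at an edgeR adjusted p of 0.058.

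The other genes of this list that passed were lower in most cases. *RSU1*, which binds the parvin-ILK complex, fell from 132 to 174 TPM in wild type to 55.9 to 74.3 in *timeless*, at a log2 fold change of -1.13 ± 0.16 and an edgeR adjusted p of 0.0056. It lies on chromosome 2. *ACTN1*, an actin crosslinker, was lower in *timeless* (-1.54 ± 0.32, edgeR adjusted p = 0.022) and in *fancj* (-1.32 ± 0.22, edgeR adjusted p = 0.022). *PARVG*, a parvin of blood cells, was lower in *timeless* (-1.21 ± 0.28), as was *VCL*, vinculin, in *ddx11* (-2.88 ± 0.51), at edgeR adjusted p of 0.032 and 0.022. *GIT1*, a scaffold of focal adhesions, was higher in *fancj* by 1.54 ± 0.28 at an edgeR adjusted p of 0.033. The remaining genes that passed were *PTK2* (FAK), lower in *ddx11*, and *PARVA*, higher in *fancj*, which passed the limit of 1 TPM only through that line. Of these calls other than those of *FYN* and *RSU1* in *timeless* and *FYN* in *ddx11*, each was lost when 1 of several libraries was left out, and those in *fancj* were lost without any 1 of the wild-type libraries.

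Of the 25 ligand genes with a row, 10, 9 and 12 were tested, and 0 were altered in *timeless* in edgeR (3 at an unadjusted p under 0.05, 2 with DESeq2's Wald test), 1 was higher in *ddx11*, and 3 were higher and 1 lower in *fancj*. The shares over all genes tested were 8.20%, 2.62% and 4.28%. In *timeless* 2528 of all 11653 genes had an unadjusted p under 0.05 in edgeR, and DESeq2's Wald test called 1499. *LAMB1*, a laminin chain, was at 2.85 to 4.67 TPM in wild type and 12.3 to 16.6 in *ddx11*, a log2 fold change of 1.98 ± 0.22 (SE) at an edgeR adjusted p of 0.0029. In *fancj* it was at 12.6 to 19.1 TPM, with 1.89 ± 0.35 at an edgeR adjusted p of 0.033. *VTN* (vitronectin) and *SPP1* (osteopontin), both RGD ligands of αV integrins, were at most 0.14 and 0.15 TPM in wild type and at 3.37 to 24.9 and 1.49 to 7.67 TPM in *fancj*, at edgeR adjusted p of 0.014 and 0.022. They were also higher in *fancj* than in *timeless*, at edgeR adjusted p of 0.034 and 0.040, and than in *ddx11*, at 0.038 for both. *COL1A1*, a collagen chain, was lower in *fancj* by -1.78 ± 0.34 at an edgeR adjusted p of 0.037. *VTN* and *SPP1* passed the limit of 1 TPM only through *fancj*, in all of these comparisons. All 4 calls against wild type in *fancj* were lost without any 1 of the wild-type libraries. The calls of *VTN* and *SPP1* against *timeless* and against *ddx11* were each made in 7 of 11 fits. They were lost without any 1 library of the line compared and without *fancj* replicate 2, at edgeR adjusted p of up to 0.212. Marker sums of other cell types moved in both directions in *fancj*. Of the 11824 genes tested in *fancj* against wild type, 339 were called higher and 167 lower (1.41%). The marker rows tested were 2 erythroid, 1 myeloid and thrombocyte, 3 fibroblast and epithelial, 5 T lymphocyte and 21 B lymphocyte. The summed TPM of 4 erythroid markers was 40.1 to 51.2 in *fancj* against 27.2 to 29.9 in wild type. That of 7 myeloid and thrombocyte markers was 1.3 to 7.5 against 0.5 to 0.9, and neither sum overlapped wild type. In each list 1 gene (*HBBA* and *CSF1R*) was called higher, both having passed the limit of 1 TPM only through *fancj*. That of 10 fibroblast and epithelial markers was 5.0 to 24.2 against 8.9 to 10.4, with 1 gene called lower. For the 13 rows of T lymphocyte markers it was lower without overlap, at 105.6 to 143.0 against 162.6 to 233.9, with 1 gene called higher. Most of the wild-type sum was *CD3D*, at 155.03 to 215.41 TPM in wild type and 52.73 to 85.03 in *fancj*. *CD5* went the other way, at 3.94 to 11.94 TPM in wild type and 44.14 to 71.78 in *fancj*. B lymphocyte markers were also lower in sum, at 953.3 to 2076.2 against 2698.6 to 3049.1, with 5 of 21 called lower and 0 higher. A large part of this sum was *JCHAIN*, at 415 to 956 TPM in wild type and 30.2 to 142 in *fancj*. Not every marker was lower: *IRF8* was at 84.3 to 126 TPM in wild type and 140 to 303 in *fancj*, and *BLB2* at 6.91 to 23.3 and 31.7 to 85.7. The part of cell types in these values was not tested. The ligand genes with the highest level in wild type were *TGFB1*, at 302 to 399 TPM, and *LAMC1*, at 154 to 228, and neither passed the test against wild type.

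Of the 11 partners of integrins in the membrane with a row, 8, 8 and 9 were tested. Of these, 0 were higher and 2 lower in *timeless* and in *ddx11*, and 0 were altered in *fancj* in edgeR. Of all genes tested, 8.20%, 2.62% and 4.28% were altered. In *fancj* 3 partners had an unadjusted p under 0.05 in edgeR, and 1 was called by DESeq2's Wald test. For all 11824 genes tested there, these counts were 1995 and 1319. *CD44*, a hyaluronan receptor, was at 7.22 to 10.3 TPM in wild type, against 0.68 to 1.17 for *timeless* and 1.58 to 2.61 for *ddx11*. Its log2 fold change was -3.13 ± 0.28 (SE) and -2.21 ± 0.22, at edgeR adjusted p of 0.00066 and 0.0017 (in *timeless* it passed the limit of 1 TPM only through wild type), and both calls held in every fit in which they were tested. In *fancj* it was at 1.84 to 8.95 TPM, with -0.87 ± 0.50 at an edgeR adjusted p of 0.46. *CD81*, a tetraspanin that associates with α4β1, was at 81.6 to 108 TPM in wild type, against 42.2 to 60.1 for *timeless* and 26.5 to 49.5 for *ddx11*. Its log2 fold change was -0.89 ± 0.20 and -1.47 ± 0.20, at edgeR adjusted p of 0.032 and 0.0074. The call in *ddx11* was lost without *ddx11* replicate 3 (edgeR adjusted p = 0.060), and that in *timeless* without wild-type replicate 2 or 3 or *timeless* replicate 1 or 3. *BSG*, a membrane partner of β1, was the most abundant at 134 to 187 TPM in wild type and did not pass the test.

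**Figure D5:**
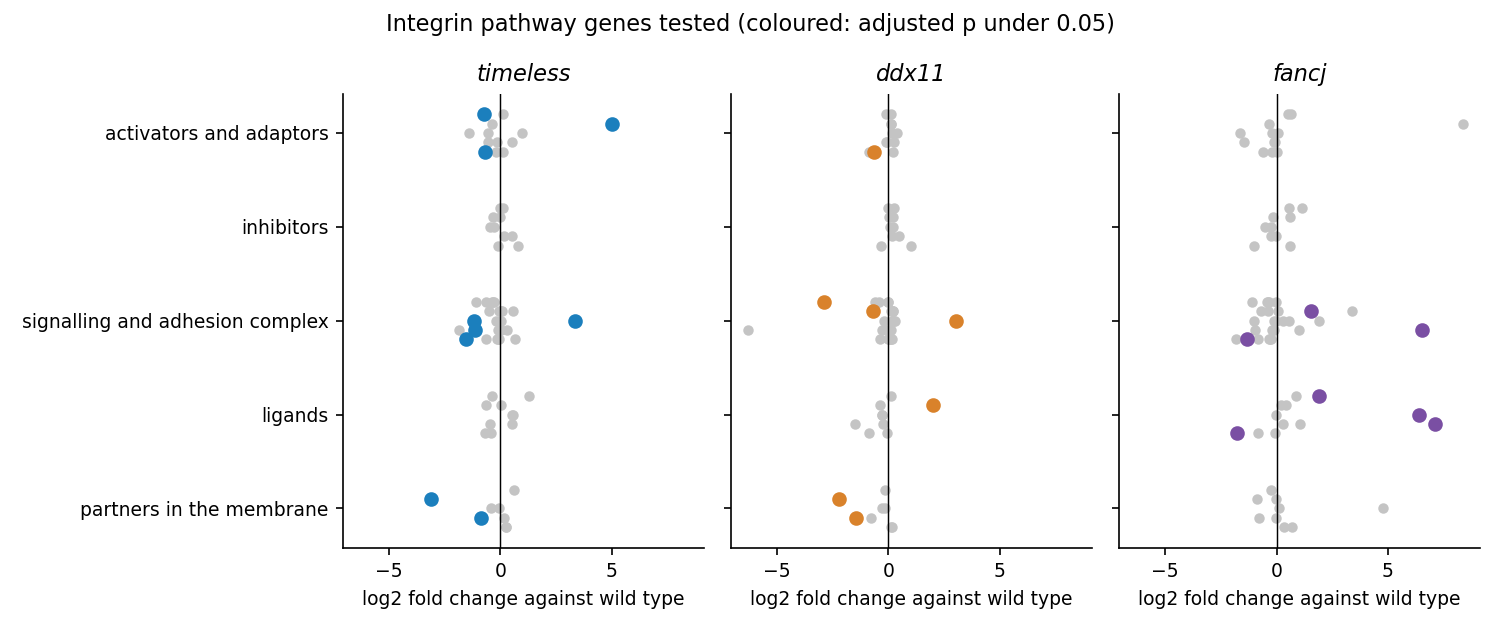
Log2 fold change against wild type (horizontal axis) of the tested genes of 5 integrin pathway lists (rows) in *timeless*, *ddx11* and *fancj* (panels); each point is 1 gene and coloured points have an adjusted p under 0.05, with the vertical offset only separating points. Most points lie near 0, and 0 of the 10 inhibitors tested are coloured in any panel. Of all genes tested, 8.20%, 2.62% and 4.28% were altered in the 3 mutants.

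Set beside all genes tested, the medians of these lists lay between -0.29 and 0.36, and how far lists of such sizes vary was not tested. The median log2 fold change of the activators and adaptors was -0.22 in *timeless*, 0.10 in *ddx11* and -0.12 in *fancj*. For the signalling and adhesion complex it was -0.12, 0.04 and -0.24, and for the ligands -0.17, -0.29 and 0.36. For the inhibitors it was -0.036, 0.184 and -0.098, and for the membrane partners 0.046, -0.225 and -0.012. The median of all genes tested was 0.01, 0.00 and 0.03. The lists were chosen with results of these data known.

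Of the genes near *ITGA4*, the 3 that could be tested did not share its difference. Of the 5 RefSeq genes on each side in GRCg7b, 6 were matched to a row in the files and 3 of these were tested. *UBE2E3*, a ubiquitin-conjugating enzyme, had a wild-type level of 64.9 ± 2.49 TPM (SD, n = 3), with log2 fold changes of -0.37, -0.20 and 0.38 in *timeless*, *ddx11* and *fancj*. *CWC22*, a splicing factor, was at 20.4 ± 1.11 TPM with 0.13, -0.06 and 0.14. *NEUROD1*, a transcription factor gene on the other side, was at 2.39 ± 1.19 TPM with 0.72, 0.57 and 0.58. None of these 9 values passed the test, and *PDE1A*, *PPP1R1C* and *ZNF385B* stayed below 1 TPM in every line. In the same annotation *CERKL* and 1 noncoding gene overlap *ITGA4*. Neither was matched in the files, and whether reads were counted by strand is not given in the sources used here, so reads of an overlapping transcript could not be told apart from those of *ITGA4*.

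*ITGA4* had 1 transcript in the annotation used, of 3066 bases, and its expected counts were whole numbers in 12 of 12 libraries, as were those of the other 5 members. The RSEM length of a gene is weighted by the transcripts it assigned reads to, and it moved by at most a few percent for the members, from 3657 to 3665 bases for *ITGB1*, from 5658 to 5682 for *ITGAV* and from 3395 to 3535 for *ITGA6*. With 1 annotated transcript this length was fixed for *ITGA4*, so it could not have shown a change in the transcripts of the gene.

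Over the 12 libraries, the genes whose level was most like that of *ITGA4* were *SERINC5*, *E2F1*, *LBH*, *OSBP2* and *ERN2*, by Pearson's r of log2(TPM + 1) of 0.966, 0.957, 0.946, 0.944 and 0.940. These were the 5 highest of 8191 genes whose mean reached 10 TPM in some line. The points are 4 lines of 3 libraries, with wild type at one end, so r is a description of this set and carries no test. *LBH*, a transcription cofactor, had a median of 65.7 TPM in wild type, 36.9 in *ddx11*, 14.6 in *timeless* and 14.7 in *fancj*. *E2F1*, a cell cycle transcription factor, was at 272 to 340 TPM in wild type and 141 to 281 in the mutants. *SERINC5*, a membrane protein, was at 9.75 to 10.8 TPM in wild type and 2.09 to 7.74 in the mutants. Among the subunits that passed the same limit, r with *ITGA4* was 0.22 for *ITGB2*, 0.02 for *ITGB1*, -0.02 for *ITGA3* and -0.13 for *ITGA1*.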

How the data were processed

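Poly(A) RNA of 3 cell populations per line, each 1 replicate, was sequenced on a HiSeq4000. The authors aligned reads to GRCg6a with Bowtie 2 and ran RSEM with Ensembl 96. The deposited expected counts are estimates per gene and are not normalized, the deposited TPM values were scaled by the authors to length and library total, and the gene lengths come from RSEM. FPKM was not used.

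Rounded expected counts of the 6 libraries of a pair of lines were fitted with the quasi-likelihood test of edgeR 4.0.16 under R 4.3.3, after TMM scaling. A gene entered if either line had a mean of 1 TPM or more, and was called altered when p, adjusted by the Benjamini-Hochberg method over all genes tested, was under 0.05. An SE is the log2 fold change over the square root of F. The p-values measure the spread between populations of a line, which may come from 1 clone. The fit was first tested on simulated data. Symbols were matched to the RefSeq gene table of GRCg7b for chromosomes and neighbours (12681 of 13869).

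The members and gene lists were chosen with earlier results of these data known. Named besides the members were, per list, up to 6 genes altered against wild type by the smallest adjusted p and the 2 with the highest level in wild type, the 5 genes most like *ITGA4* and its 5 RefSeq neighbours on each side. *ITGA9*, *ITGB7*, *PTK2* and *PARVA* fall outside this rule and were named after their values were seen. So were *HBBA*, *CSF1R*, *CD3D*, *CD5*, *JCHAIN*, *IRF8* and *BLB2*, taken from the lists of cell type markers.

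Deviations from the line mean of same-numbered libraries correlated at 0.31, 0.45 and 0.25 in *timeless* with *ddx11* and at 0.28, 0.12 and 0.39 in *fancj* with *timeless*, which was taken as pairing. The second is uncertain, as *fancj* replicate 2 correlated best with *timeless* replicate 1. Both pairings together would also pair *fancj* with *ddx11*, where the correlations were 0.056, -0.076 and 0.328. No 2 libraries of a line agreed within sampling noise. Alternatives were the TPM limit, DESeq2 size factors, the Wald test of DESeq2 1.42.0, the replicate block, all 12 libraries in 1 fit and leaving out each replicate. A planned count of G4 motifs in the members' promoters was not run.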

Additional observations from a re-analysis of the deposited data

Results flagged for a closer look

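*ITGB7*, the β7 partner of α4, differed between 2 of the mutants: it was lower in *timeless* than in *ddx11* by a log2 difference of -2.53, at an adjusted p of 0.035 in the quasi-likelihood test of edgeR (Benjamini-Hochberg method). The *timeless* libraries were at 0.34 to 0.54 TPM and the *ddx11* libraries at 1.32 to 4.05 TPM. In the fit that blocked on the replicate number the edgeR adjusted p was 0.014. The call was made in 6 of 11 fits and was lost in the fit of all 12 libraries and without *timeless* replicate 1 or 3 or *ddx11* replicate 2 or 3. Over all 11 fits the adjusted p was 0.0010 to 0.13. *ITGB7* passed the limit of 1 TPM only through *ddx11*, the line where it was higher. The lowest *timeless* library rested on 8 expected counts. The groups of 3 libraries are too small for a test of single outlying libraries.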

How the results depend on the processing

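The number of members altered stayed at 0 in most fits. It was 0 to 1 over the fits that left out 1 library in *ddx11* against wild type, in *fancj* against wild type and in *timeless* against *ddx11*, and 0 in the other 3 comparisons. With DESeq2's Wald test it was 1 in *fancj* against *timeless* and 2 in *fancj* against *ddx11*. Values near 0 changed sign: with the replicate block *ITGAV* was -0.005 in *timeless* against *ddx11* and *ITGA6* -0.005 in *fancj* against *ddx11*. Leaving out 1 library gave -0.28 to 0.26 for *ITGAV* and -0.43 to 0.22 for *ITGA6* in *timeless* against *ddx11*, -1.17 to 0.15 for *ITGA4* and -0.031 to 0.679 for *ITGA6* in *fancj* against *timeless*, and -0.073 to 0.6 for *ITGA6* in *fancj* against *ddx11*; the cause was not tested. *ITGA4* against wild type stayed between -3.92 and -2.91 in *timeless*, -2.35 and -1.84 in *ddx11*, and -4.37 and -3.39 in *fancj*.

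The background moved more. In *timeless*, *ddx11* and *fancj* against wild type, then *timeless* against *ddx11*, *fancj* against *timeless* and *fancj* against *ddx11*, 955, 301, 506, 601, 102 and 93 genes were altered. With at least 1 TPM in both lines, which leaves fewer genes, these were 611, 153, 116, 257, 13 and 10, and with the Wald test 1499, 547, 1319, 1182, 847 and 836. Leaving out 1 library gave 349 to 957, 98 to 462, 45 to 864, 189 to 676, 0 to 242 and 3 to 491. The replicate block gave 142 in *ddx11* against wild type, 1629 in *timeless* against *ddx11* and 247 in *fancj* against *timeless*. The fit of all 12 libraries gave 172 in *ddx11* and 1030 in *fancj* against wild type, 802 in *fancj* against *timeless* and 500 in *fancj* against *ddx11*. With no TPM limit 514, 265 and 319 genes were altered in *ddx11* against wild type, *fancj* against *timeless* and *fancj* against *ddx11*.

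In the other 4 comparisons at least 1 correlation of same-numbered libraries was below 0.1 (range -0.21 to 0.33), so the numbers were not taken as pairs. In *fancj* against wild type they were 0.19, 0.099 and 0.104, and each library correlated best with its own number. The block changed no call of a member. With the block *ITGA7* in *ddx11* had an edgeR adjusted p of 0.066. *ITGA4* rested on 81 to 262 counts a library in *fancj*, which limits the precision of its level there.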
